A study of Rattus norvegicus with 7 samples.

Results

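Cadherins and their relatives were examined in RNA sequencing of the brain of rats that ate a diet with docosahexaenoic acid (DHA). Members were all genes whose symbol named a cadherin (Cdh), a cadherin-related gene (Cdhr), a protocadherin outside the clustered loci (Pcdh followed by a number), a Celsr or Fat cadherin or a calsyntenin (Clstn), and that were listed in both deposited tables. Of 15805 symbols found in both tables, 39 met this rule. The 7 libraries came from male Sprague Dawley rats that were 2 months old when they were put on an omega-3 diet containing DHA, which lasted 6 weeks. Of these, 4 were made from hippocampus (DHA_hippocampus) and 3 from hypothalamus (DHA_hypothalamus). All libraries used here share the diet. Libraries from chow-fed rats were not analysed here, which leaves the effect of the diet unmeasured. The labels do not say whether a rat gave both tissues, nor that each library is a different animal.

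Cadherins hold cells together by binding, in the presence of calcium, to cadherins on the neighbouring cell. Classical type I and type II cadherins carry a cytoplasmic tail that binds beta-catenin and p120-type catenins and is linked to actin through alpha-catenin. Protocadherins lack this tail, and several of them recruit the WAVE actin regulators instead. Fat and Celsr cadherins are giant members known from planar cell polarity, and calsyntenins are neuronal cadherin-like proteins of axonal transport and synapses. In the brain, different neurons carry different combinations of these genes, which are known to bear on which cells adhere and form synapses with one another.

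Levels are given in FPKM as deposited, that is, fragments per kilobase of transcript and per 1000000 fragments, the scale on which genes are compared with one another. Each tissue has a table of its own, so tissue and table cannot be told apart, no test was made across them, and differences are described without a p-value. For differences, FPKM of a library were scaled to add up to 1000000 over the symbols in both tables and set side by side as log2(rescaled FPKM + 1), which understates the change of low genes. Values of single libraries are listed by replicate number. A gene was compared where its mean reached 1 FPKM in either tissue. It was called higher in a tissue if its libraries did not overlap between tissues and the difference of means was 2-fold or more on the log2 scale. All 6 listed markers of hippocampal excitatory neurons were called higher in hippocampus and all 9 of hypothalamic neurons in hypothalamus. Summed FPKM lay between 363950 and 384523 in the hippocampus libraries and between 442119 and 470001 in the hypothalamus libraries, and the number of fragments behind them is unknown. Replicate 1 of each tissue stood apart in its lowest values. Among loci under 0.1 FPKM in a pair of libraries, the share that lay at the most frequent ratio was at most 2.75% in the pairs with a replicate 1 and 10.5% to 25.7% in the other pairs, so calls are also given without that replicate.

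Of the 39 members, 33 reached the minimum and were compared. Cdh1 and Cdhr1 reached it in hypothalamus alone and Cdh3 and Fat4 in hippocampus alone. Called higher in hippocampus were 5 members, Cdh8, Cdh9, Pcdh19, Pcdh20 and Fat4, and called higher in hypothalamus were 4, Fat1, Fat3, Cdh23 and Pcdh18. Of all 10736 compared symbols, 14.5% were called higher in hippocampus and 13.4% in hypothalamus. The 9 called members are 27.3% of those compared and 27.9% of all symbols were called in either direction, a share near the background. Without the 2-fold limit, 8 members did not overlap and were higher in hippocampus, against 28.2% of all symbols, and 11 did not overlap and were higher in hypothalamus, against 24.4% (either direction 52.6%). In FPKM as deposited these counts were 6 and 14 members, and 2045 and 3774 of the 10736 symbols. The median difference, hippocampus minus hypothalamus, was −0.14 over the compared members and 0.05 over all compared symbols on the log2 scale. In FPKM as deposited the median of all symbols moved to −0.21 and the members' calls became 3 against 4, with Pcdh19 and Fat4 no longer called. Over all symbols, calls were 1560 on the hippocampal and 1439 on the hypothalamic side, and 928 and 1819 in FPKM as deposited. Without replicate 1 of both tissues, the same 5 members were called higher in hippocampus, and in hypothalamus Cdh15 took the place of Pcdh18.

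**Figure D1:**
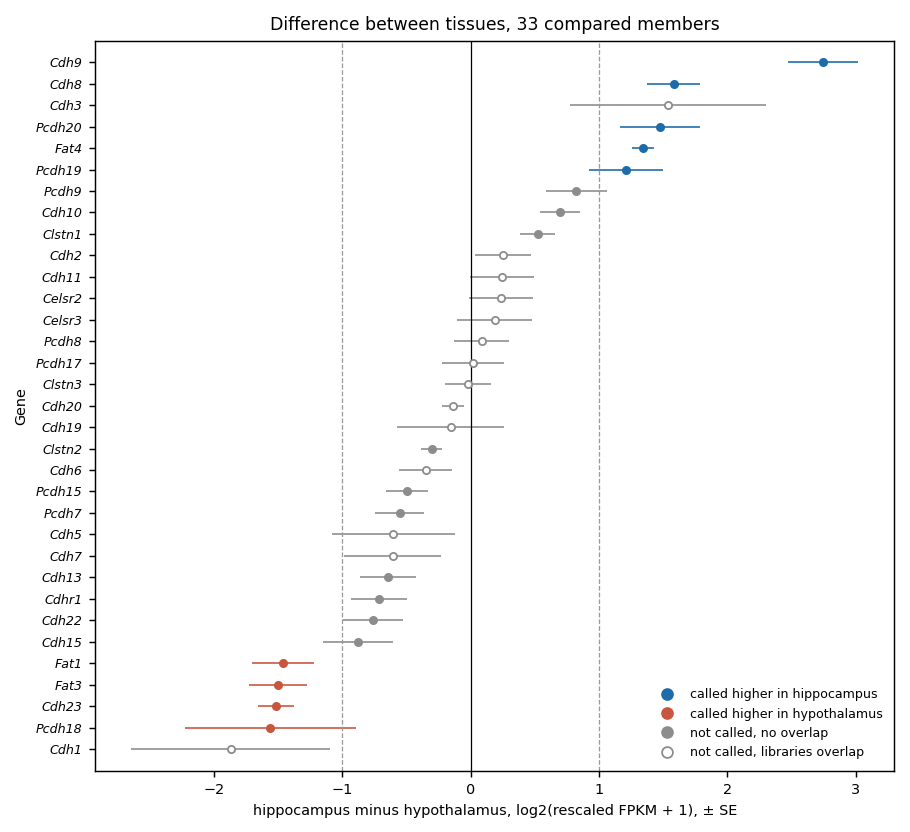
Difference between tissues for the 33 compared members, as hippocampus minus hypothalamus on the log2(rescaled FPKM + 1) scale, with bars of 1 standard error from the spread of 4 and 3 libraries and dashed lines at 2-fold. The 5 blue genes were called higher in hippocampus and the 4 red genes in hypothalamus, while Cdh1 and Cdh3 lie past a dashed line with open symbols because their libraries overlapped.

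Levels within the family spanned a wide range. The calsyntenins Clstn1 and Clstn3 had the highest mean in both tissues, and the 3 calsyntenins together held 47.3% ± 5.8 (SD, n = 4) of the members' summed FPKM in hippocampus and 43.9% ± 2.2 (SD, n = 3) in hypothalamus. By mean level, Clstn1 stood at percentile 98.3 of all shared symbols in hippocampus and 97.4 in hypothalamus. Next came Cdh2 and Cdh13 in hippocampus and Cdh13 and Cdh2 in hypothalamus. The 6 members under the minimum, Cdh16, Cdh17, Cdh26, Cdhr5, Fat2 and Pcdh12, did not exceed 0.437 FPKM in any library. Cdh16, the kidney cadherin, was listed at 0 in all 4 hippocampus libraries.

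**Figure D2:**
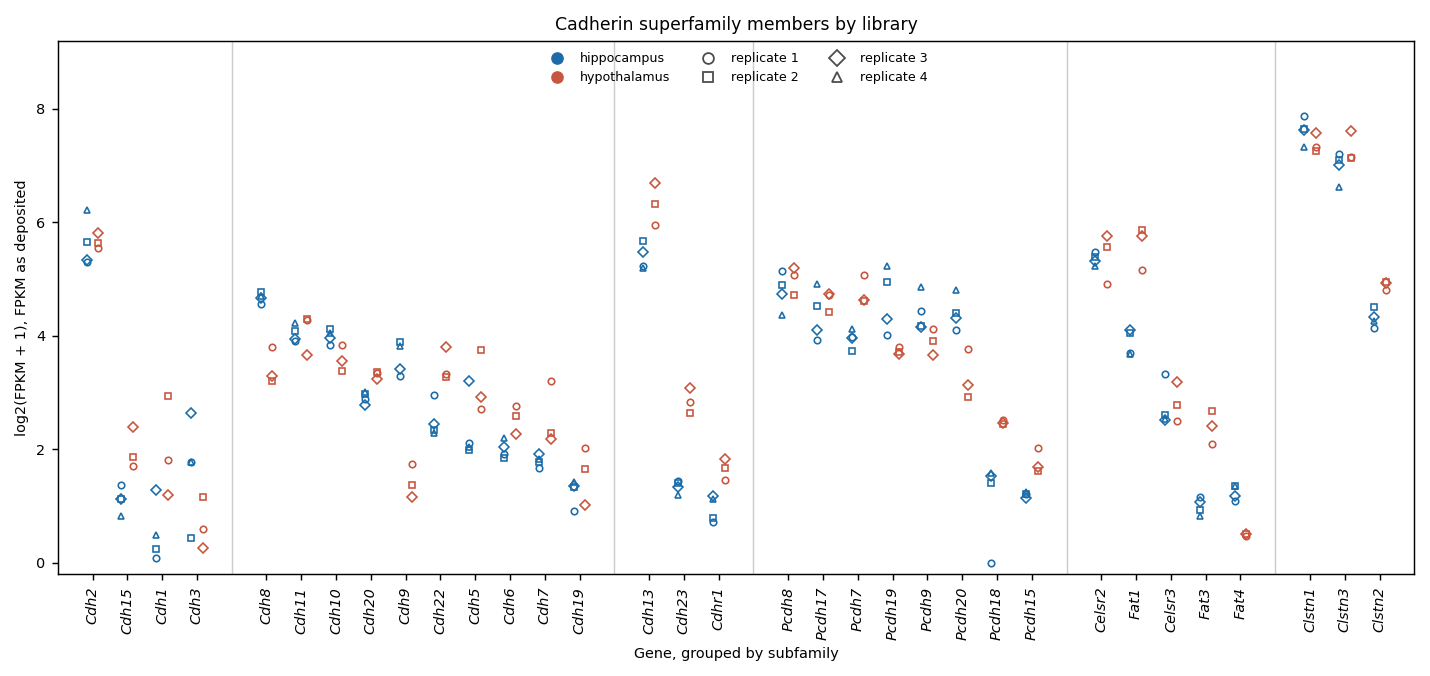
log2(FPKM + 1) of the 33 compared members in each library, FPKM as deposited, with hippocampus in blue, hypothalamus in red and a marker shape for each replicate. Clstn1 and Clstn3 are the highest genes, Cdh8, Cdh9 and Fat4 show all blue points above all red ones, and Pcdh18 has 1 hippocampus library at 0.

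Type II cadherins are known for setting adhesion between particular neurons, and 10 of them were measured. Among these 10, Cdh8 and Cdh9 were called, both on the hippocampal side, which is 20%, against 27.9% of all symbols. Cdh9, known from the synapses between dentate granule cells and CA3 neurons, read 8.77, 13.8, 9.61 and 13.1 FPKM in hippocampus and 2.34, 1.57 and 1.24 FPKM in hypothalamus. The tissues did not overlap, and after rescaling the lowest hippocampus library was 4.57 times the highest hypothalamus library. Its mean was 8.03-fold higher in hippocampus after rescaling, a difference of 2.75 ± 0.27 (SE, n = 4 and 3) on the log2 scale, the largest among the compared members. In bulk tissue, a larger number of cells with a transcript and more of it per cell cannot be told apart, which holds for every gene here.

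Cdh8 read 22.5, 26.3, 24.5 and 24.9 FPKM in hippocampus and 12.9, 8.19 and 8.84 FPKM in hypothalamus. The hippocampus libraries had a coefficient of variation of 6.29%, and all were above every hypothalamus library. The difference was 1.58 ± 0.21 (SE, n = 4 and 3) on the log2 scale, or 3.02-fold between rescaled means. Cdh8 and Cdh9 were called under each of the 19 alternatives tried. Cdh10, another type II cadherin of neurons, was also higher in every hippocampus library after rescaling, by 1.63-fold between means, but its FPKM as deposited overlapped, at 13.2 to 16.3 FPKM in hippocampus and 9.47 to 13.4 FPKM in hypothalamus.

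A comparison that does not need the tables to share a scale is the make-up of the subfamily within a library. Of the summed FPKM of the 10 type II genes, Cdh8 made up 26.7% to 28.3% in the hippocampus libraries and 10.3% to 14.7% in the hypothalamus libraries. Cdh9 made up 10.8% to 14.9% and 1.80% to 2.67%. Neither gene's shares overlapped between tissues, nor did those of Cdh10, at 16.3% to 17.6% and 11.9% to 15.7%. Cdh22, a brain cadherin, held 4.17% to 8.35% in hippocampus and 10.3% to 18.8% in hypothalamus. Cdh20 held 6.64% to 7.90% and 10.4% to 12.2%, and Cdh6 held 2.80% to 3.83% and 5.54% to 6.58%. Cdh7 held 2.61% to 3.12% and 4.90% to 9.33%. These 4 genes had the larger share in every hypothalamus library, but shares add up to a fixed total. After rescaling, Cdh6, Cdh7 and Cdh20 overlapped between tissues, with differences of −0.35, −0.61 and −0.14, while in FPKM as deposited all 3 were higher in every hypothalamus library. Cdh11, a cadherin of mesenchymal cells that neurons carry too, overlapped, with 16.1% to 19.0% and 17.0% to 23.6%. As a level, Cdh22 was higher in every hypothalamus library, at 3.88 to 6.75 FPKM in hippocampus and 8.64 to 12.9 FPKM in hypothalamus, and missed the 2-fold limit with a difference of −0.76.

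**Figure D3:**
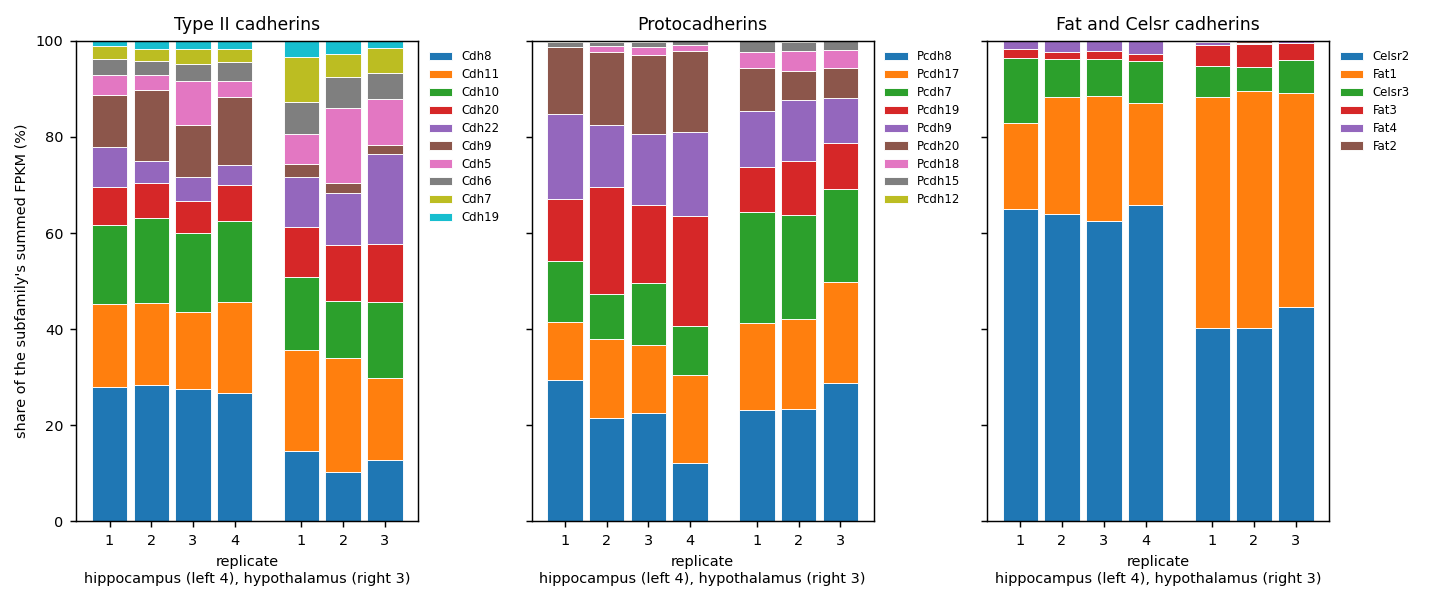
Share of each gene in the summed FPKM of the members found of its subfamily, in percent, for each library (4 hippocampus bars on the left and 3 hypothalamus bars on the right of each panel). Cdh8 fills at least 26.7% of every hippocampus bar of the type II panel and at most 14.7% of every hypothalamus bar, and in the Fat and Celsr panel Fat1 takes more, and Celsr2 less, of the hypothalamus bars than of the hippocampus bars.

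Cdh7 and Cdh19 varied among hypothalamus libraries. Cdh7 read 8.17, 3.89 and 3.53 FPKM in hypothalamus replicates 1 to 3, and Cdh19 read 3.04, 2.14 and 1.03 FPKM. Replicate 1 was the highest of the 3 for both genes. The same library was highest in 4 of the 5 listed thalamus markers, Lef1 being the exception, and in 44.3% of all compared symbols. Slc17a6 read 78.1, 27.4 and 27.5 FPKM and Tcf7l2 read 17.0, 9.03 and 9.43 FPKM. Of that list, Tcf7l2, Lef1 and Slc17a6 were called higher in hypothalamus and Plekhg1 in hippocampus, while Prkcd overlapped. Among the hypothalamic neuron markers, Hcrt, Pmch, Oxt, Cartpt and Sim1 were also highest in replicate 1. Avp, Pomc, Otp and Nkx2-1 were highest in another hypothalamus library. The 5 listed thalamus markers summed to 143, 66.6 and 53.3 FPKM in hypothalamus and to 34.4 to 51.9 FPKM in hippocampus, and none was at 0 throughout. Their part in the levels of Cdh7 and Cdh19 was not tested.

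Among type I cadherins, 4 of the 5 listed were found. Cdh2 (N-cadherin, the main classical cadherin of neurons) accounted for 82.3% to 96.7% of the summed FPKM of these 4. It read 38.4, 49.5, 39.3 and 73.5 FPKM in hippocampus and 45.8, 48.8 and 55.5 FPKM in hypothalamus, so that the tissues overlapped. Hippocampus replicate 4 was the highest library. The difference was 0.25 ± 0.22 (SE, n = 4 and 3), and in FPKM as deposited it changed sign, to −0.04. Cdh15 (M-cadherin, known from muscle) was low, at 0.761 to 1.59 FPKM in hippocampus and 2.27 to 4.25 FPKM in hypothalamus, without overlap and with a difference of −0.88.

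Cdh1 (E-cadherin) and Cdh3 (P-cadherin) are cadherins of epithelia, and Cdh5 (VE-cadherin, a type II gene) joins endothelial cells. Cdh1 read 0.0608, 0.182, 1.42 and 0.400 FPKM in hippocampus and 2.51, 6.67 and 1.28 FPKM in hypothalamus. Cdh3 read 2.43, 0.345, 5.19 and 2.43 FPKM in hippocampus and 0.507, 1.22 and 0.190 FPKM in hypothalamus. Cdh5 read 3.32, 2.98, 8.18 and 3.11 FPKM in hippocampus and 5.57, 12.5 and 6.53 FPKM in hypothalamus. All 3 genes were highest in hippocampus replicate 3 and in hypothalamus replicate 2, and the tissues overlapped for each. The differences were −1.87 ± 0.77 (SE, n = 4 and 3) for Cdh1, 1.54 ± 0.76 (SE, n = 4 and 3) for Cdh3 and −0.60 ± 0.48 (SE, n = 4 and 3) for Cdh5.

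Markers of tissues that border the dissections are given beside these 3 genes. The meninges list, a mean of log2(FPKM + 1) over 8 genes of which Col1a2 was listed at 0 throughout and Ogn at 0 in hippocampus, stood at 1.40, 1.41, 2.94 and 1.72 in hippocampus and at 3.14, 3.73 and 2.18 in hypothalamus, highest in the same 2 libraries. Its summed level was 28.5 to 148 FPKM in hippocampus and 45.9 to 215 FPKM in hypothalamus. The choroid plexus list, with 7 genes found and Otx2 listed at 0 throughout, stood at 4.95, 1.21, 5.63 and 4.80 in hippocampus and at 1.73 to 2.32 in hypothalamus, and summed to 35.3 to 5996 FPKM and to 34.8 to 73.2 FPKM. Hippocampus replicate 2 was lowest in that list and in Cdh3, but not in Cdh1, which was lowest in replicate 1. The pituitary list held 5 genes, of which Prl was listed at 0 throughout. It summed to 99.4, 315 and 206 FPKM in hypothalamus, where replicate 2 was also the highest, and to at most 0.172 FPKM in hippocampus. Most of the hypothalamic sum was Cga, at 70.4, 282 and 183 FPKM. Tshb was also highest in replicate 2, but Pou1f1 was highest in replicate 1, at 25.2, 17.7 and 18.3 FPKM. Gh1 did not exceed 0.237 FPKM in any library. The endothelial list, 5 genes with none at 0 throughout, had a level of 4.25 to 4.53 in hippocampus, where replicate 3 was the highest. In hypothalamus the level was 3.55 to 3.89, and replicate 1 was the highest. The list summed to 127 to 165 FPKM in hippocampus and to 65.8 to 94.3 FPKM in hypothalamus. By sum, hippocampus replicate 1 was the highest of its tissue, at 165 FPKM, with 159 FPKM in replicate 3. Cldn5, Flt1 and Esam of that list were called higher in hippocampus, and Pecam1 and Tek overlapped, with differences of −0.16 and 0.40. Cdh5 had the higher mean in hypothalamus. The part of these tissues in Cdh1, Cdh3 and Cdh5 was not tested. Calls depended on single libraries: without hippocampus replicate 2, Cdh3 was called higher in hippocampus, with a difference of 2.13. Cdh1 was called higher in hypothalamus without hippocampus replicate 3, with a difference of −2.30, and without hypothalamus replicate 3, with a difference of −2.36. It was also called without hippocampus replicate 3 and hypothalamus replicate 2 together, with −1.73.

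**Figure D4:**
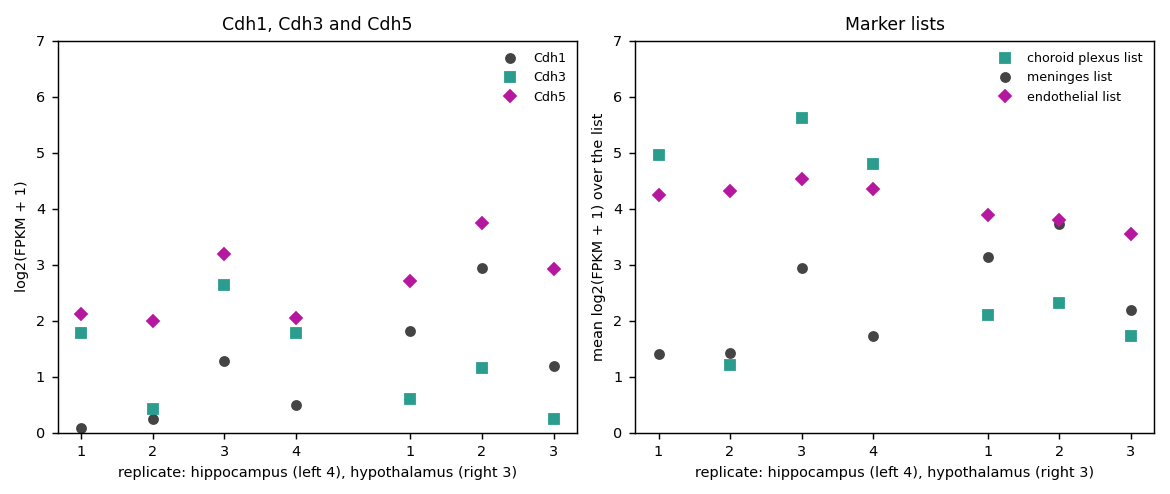
Left panel, log2(FPKM + 1) of Cdh1, Cdh3 and Cdh5 in each library, and right panel, mean log2(FPKM + 1) of the choroid plexus, meninges and endothelial marker lists in the same libraries. Hippocampus replicate 3 and hypothalamus replicate 2 are the highest points of their tissue for all 3 genes and for the meninges list, and hippocampus replicate 2 is the lowest for Cdh3 and the choroid plexus list.

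Among the Cdh genes with other architectures, Cdh13 (T-cadherin, which is anchored by a lipid and has no tail) was the most abundant. It read 36.6, 50.2, 43.6 and 35.7 FPKM in hippocampus and 61.3, 79.2 and 102 FPKM in hypothalamus. All hypothalamus libraries were above all hippocampus libraries, by 1.58-fold between rescaled means, which missed the limit. The nearest libraries of the tissues were 1.04-fold apart after rescaling, and with median-of-ratios scaling the tissues overlapped. Cdh23, which with Pcdh15 forms the tip links of hair cells, read 1.72, 1.66, 1.52 and 1.29 FPKM in hippocampus and 6.17, 5.21 and 7.45 FPKM in hypothalamus. Every hypothalamus library was higher, with a difference of −1.52 ± 0.14 (SE, n = 4 and 3) and a 3.29-fold higher rescaled mean. Its hypothalamic table held another locus at 2.07, 3.47 and 4.54 FPKM, and with loci summed the difference became −2.12. Its tip-link partner Pcdh15 also lay higher in every hypothalamus library, at 1.21 to 1.37 FPKM in hippocampus and 2.08 to 3.08 FPKM in hypothalamus, a difference of −0.50 that was not called. Cdhr1, a photoreceptor cadherin, read 0.642 to 1.25 FPKM in hippocampus and 1.73 to 2.56 FPKM in hypothalamus, a difference of −0.71 without overlap.

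Of 9 protocadherins measured, 8 were compared, and Pcdh19 and Pcdh20 were called higher in hippocampus and Pcdh18 in hypothalamus. The 3 called genes are 37.5% of those compared, against 27.9% of all symbols. Pcdh20 read 16.3, 20.2, 18.9 and 27.0 FPKM in hippocampus and 12.6, 6.61 and 7.80 FPKM in hypothalamus. The tissues did not overlap, and the difference was 1.48 ± 0.31 (SE, n = 4 and 3). Pcdh19, an X-linked epilepsy gene, read 15.2, 29.8, 18.6 and 36.5 FPKM in hippocampus and 13.0, 12.1 and 11.7 FPKM in hypothalamus. Its hypothalamus libraries were nearly equal, with a coefficient of variation of 5.10%, against 39.4% in hippocampus, where replicate 1 lay nearest to hypothalamus. The difference was 1.21 ± 0.29 (SE, n = 4 and 3), and in FPKM as deposited, at 0.89, it was not called. Pcdh20 was called under all 19 alternatives and Pcdh19 under 18.

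Pcdh18 read 0, 1.64, 1.90 and 2.00 FPKM in hippocampus and 4.71, 4.48 and 4.54 FPKM in hypothalamus. The 0 of hippocampus replicate 1 belongs to the higher of 2 loci, and the other read 1.17, 1.04, 1.30 and 0.875 FPKM, so the gene was not at 0 in that library. The call was lost with loci summed, at a difference of −0.63, with a pseudocount of 5, at −0.87, and without hippocampus replicate 1, at −0.90. The difference with all libraries, −1.56 ± 0.67 (SE, n = 4 and 3), passed the limit only with that library.

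Pcdh7, Pcdh8, Pcdh9 and Pcdh17 were measured at over 10 FPKM in every library and were not called. Pcdh7 read 14.7, 12.4, 14.7 and 16.5 FPKM in hippocampus and 32.6, 23.5 and 23.8 FPKM in hypothalamus, higher in every hypothalamus library with a difference of −0.55. Pcdh9 went the other way after rescaling, at 16.8 to 28.1 FPKM in hippocampus and 11.6 to 16.4 FPKM in hypothalamus, a difference of 0.82. Pcdh8 (arcadlin, a gene induced by neuronal activity) read 34.4, 28.7, 25.8 and 19.7 FPKM in hippocampus and 32.4, 25.3 and 35.6 FPKM in hypothalamus. Pcdh17 read 14.2, 21.9, 16.1 and 29.2 FPKM in hippocampus and 25.5, 20.4 and 25.8 FPKM in hypothalamus. Pcdh8 and Pcdh17 overlapped between tissues under each of 4 scalings. Within a library, Pcdh7 took 9.28% to 12.8% of the protocadherin FPKM in hippocampus and 19.3% to 23.2% in hypothalamus. Pcdh19 took 13.0% to 22.8% and 9.24% to 11.2%, and Pcdh20 took 13.9% to 16.8% and 6.09% to 8.97%, without overlap in either.

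Hippocampus replicate 4 had the highest Pcdh9, Pcdh17, Pcdh19, Pcdh20 and Cdh2 and the lowest Pcdh8, Celsr2, Clstn1 and Clstn3 of its tissue. In FPKM as deposited it was the highest library for 13 of the 33 compared members, or 39.4%, and for 32.5% of all compared symbols. It was the lowest for 30.3% of members and 35.8% of all symbols. Among genes whose mean reached 1 FPKM in the tissue, the median coefficient of variation was 16.8% for members and 17.8% for all symbols in hippocampus, and 22.1% and 19.3% in hypothalamus.

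Fat and Celsr cadherins held calls in both directions, for 3 of the 5 compared (60%, against 27.9% of all symbols). Fat1, a giant cadherin that binds actin regulators, read 11.9, 15.5, 16.2 and 11.7 FPKM in hippocampus and 34.8, 57.0 and 52.9 FPKM in hypothalamus. Every hypothalamus library was higher, by 1.75-fold or more after rescaling, and the difference was −1.46 ± 0.24 (SE, n = 4 and 3). Fat1 was called under each of the 19 alternatives. Fat3, known for shaping the dendrites of retinal amacrine cells, read 1.23, 0.909, 1.11 and 0.771 FPKM in hippocampus and 3.25, 5.40 and 4.34 FPKM in hypothalamus, without overlap, and its rescaled mean was 3.50-fold higher in hypothalamus. With a pseudocount of 5 its difference was −0.93 and not called. Fat4, the receptor partner of Dchs1, read 1.13, 1.56, 1.27 and 1.56 FPKM in hippocampus and 0.389, 0.412 and 0.412 FPKM in hypothalamus, opposite in direction to Fat1 and Fat3. Its difference was 1.34 ± 0.08 (SE, n = 4 and 3), or 4.19-fold between rescaled means. Its libraries did not overlap under any of 4 scalings, but among these it passed the 2-fold limit only with libraries scaled to an equal sum, and in FPKM as deposited the difference was 0.76. The added 1 weighs more on that smaller scale, on which the means were 1.38 ± 0.214 FPKM (SD, n = 4) and 0.404 ± 0.0135 FPKM (SD, n = 3).

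Celsr2 and Celsr3, cadherins with a receptor-like membrane domain that are known from axon guidance and cilia, overlapped between tissues. Celsr2 read 43.5, 40.8, 39.0 and 36.5 FPKM in hippocampus and 29.1, 46.6 and 52.9 FPKM in hypothalamus, where hypothalamus replicate 1 was the lowest library. Celsr3 read 9.09, 5.04, 4.69 and 4.81 FPKM in hippocampus and 4.68, 5.90 and 8.12 FPKM in hypothalamus, with hippocampus replicate 1 the highest. As shares of the summed FPKM of the 6 Fat and Celsr genes found, Celsr2, Celsr3 and Fat1 did separate. Shares add up to a fixed total, so a larger share of Fat1 lowers those of the others. Celsr2 was 62.6% to 65.9% in hippocampus and 40.2% to 44.5% in hypothalamus, Celsr3 was 7.52% to 13.6% and 5.10% to 6.84%, and Fat1 was 17.8% to 26.0% and 44.6% to 49.3%.

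The promoter sequences of 4 called genes are shown because the study, by its title, also concerned the epigenome, and cytosines followed by guanine (CpG) are where most DNA methylation of mammals is found. RefSeq promoters (build GRCr8) were matched by symbol for 29 of the 39 members, including 7 called ones. The 250 bases before the annotated start are given 5′ to 3′ on the strand of the gene, with each CpG in capitals. Cdh8 lies at chr19:5500216-5500465 (+ strand), Pcdh20 at chr15:70840299-70840548 (− strand), Fat1 at chr16:54028610-54028859 (− strand) and Cdh23 at chr20:29165333-29165582 (− strand).
Cdh8: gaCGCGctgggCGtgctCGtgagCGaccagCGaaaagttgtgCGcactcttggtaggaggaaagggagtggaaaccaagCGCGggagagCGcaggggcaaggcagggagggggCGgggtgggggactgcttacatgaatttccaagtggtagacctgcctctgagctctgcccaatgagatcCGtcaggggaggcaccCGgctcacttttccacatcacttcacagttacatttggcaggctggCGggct
Pcdh20: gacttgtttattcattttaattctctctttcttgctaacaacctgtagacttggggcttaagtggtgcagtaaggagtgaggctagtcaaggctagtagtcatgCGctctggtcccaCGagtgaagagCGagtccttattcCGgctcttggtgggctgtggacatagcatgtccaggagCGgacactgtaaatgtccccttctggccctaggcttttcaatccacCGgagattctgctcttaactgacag
Fat1: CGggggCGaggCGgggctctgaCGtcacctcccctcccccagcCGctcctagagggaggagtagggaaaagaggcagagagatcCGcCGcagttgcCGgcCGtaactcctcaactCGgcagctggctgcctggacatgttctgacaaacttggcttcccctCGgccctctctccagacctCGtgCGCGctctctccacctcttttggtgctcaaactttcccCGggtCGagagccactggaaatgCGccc
Cdh23: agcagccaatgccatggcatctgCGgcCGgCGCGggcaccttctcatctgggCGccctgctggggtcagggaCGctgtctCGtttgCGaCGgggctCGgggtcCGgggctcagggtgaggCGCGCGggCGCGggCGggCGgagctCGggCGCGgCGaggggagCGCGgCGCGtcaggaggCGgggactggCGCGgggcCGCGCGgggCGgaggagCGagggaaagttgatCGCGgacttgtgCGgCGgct
These windows hold 14 CpGs in Cdh8, 6 in Pcdh20, 17 in Fat1 and 38 in Cdh23, and the median of 33469 promoters is 5. Cdh23 is at percentile 98.4 of all promoters in CpG number and Pcdh20 at percentile 52.5. CpG number varied among genes called in the same tissue: Fat4, called in hippocampus as were Cdh8 and Pcdh20, held 21, and Pcdh18, called in hypothalamus, held 20. The letters GGGCGG, the GC box, read on both strands and overlapping a CpG by their own letters, were found 1 time in Cdh8, 3 times in Cdh23 and not in the windows of Fat1 and Pcdh20. Of all promoters, 30.5% hold them. No methylation was measured in these files.

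Of the calsyntenins, Clstn1 and Clstn3 had the highest means of all members, and Clstn2 was lower. Clstn1, an adaptor that ties cargo to kinesin-1, read 232, 199, 197 and 159.5 FPKM in hippocampus and 160.4, 153 and 190.3 FPKM in hypothalamus. Hippocampus replicate 4 fell among the hypothalamus libraries in FPKM as deposited, and after rescaling all hippocampus libraries were higher, with a difference of 0.52. Clstn3, a synaptic calsyntenin, read 146, 136, 129 and 97.9 FPKM in hippocampus and 142, 139.8 and 195 FPKM in hypothalamus, with overlap. Clstn2 read 16.6, 21.8, 19.2 and 18.2 FPKM in hippocampus and 26.9, 29.9 and 29.5 FPKM in hypothalamus, a difference of −0.30 without overlap. Its nearest libraries were 1.05-fold apart after rescaling, and with median-of-ratios scaling the tissues overlapped. Within a library, Clstn1 was 55.8% to 58.9% of the calsyntenin FPKM in hippocampus and 45.9% to 48.8% in hypothalamus. Clstn3 was 35.5% to 38.1% and 43.1% to 47.0%, and these shares too add up to a fixed total.

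Genes that work with these proteins were listed in 4 sets, of which 44 genes were compared. Called higher in hippocampus were 9 and higher in hypothalamus 2, and the 11 called genes are 25% of those compared, against 27.9% of all symbols. By set, the called share was 7.69% for catenin partners and 18.2% for Fat and Celsr pathway partners. It was 60% for protocadherin and calsyntenin partners and 20% for cadherin-cleaving proteases. In FPKM as deposited, and likewise with upper-quartile scaling, the split was 9 against 4. The median difference of the 44 was 0.48, beside 0.05 over all symbols, and it was 0.18 in FPKM as deposited, beside −0.21. Of 10 protocadherin and calsyntenin partners, 5 were called higher in hippocampus and 1 in hypothalamus, and the WAVE complex genes Wasf1, Cyfip1, Cyfip2 and Abi1 were among the 5. Wasf1 read 152, 149, 123 and 134 FPKM in hippocampus and 21.3, 35.6 and 45.8 FPKM in hypothalamus. All hippocampus libraries were higher, with a difference of 2.37 ± 0.31 (SE, n = 4 and 3). Abi1 read 44.9 to 57.1 FPKM in hippocampus and 19.2 to 24.1 FPKM in hypothalamus, or 2.86-fold between rescaled means, and Cyfip1 read 23.6 to 50.7 FPKM in hippocampus and 12.9 to 17.8 FPKM in hypothalamus, or 2.99-fold. Cyfip2 read 231 to 272 FPKM in hippocampus and 0, 108 and 136 FPKM in hypothalamus, but its other hypothalamic locus read 104 FPKM in the library listed at 0. With loci summed, its difference of 4.09 became 1.07. Abi2 also lay higher in every hippocampus library, with a difference of 0.95 that was not called. Apba2, an adaptor that binds calsyntenins, and its relative Apba3 differed in direction: Apba2 read 82.1 to 94.3 FPKM in hippocampus and 27.0 to 35.4 FPKM in hypothalamus, and Apba3 read 1.84 to 4.32 FPKM in hippocampus and 7.19 to 13.8 FPKM in hypothalamus.

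Of 13 catenins and other junction genes compared, Arvcf, a p120-type catenin, was called, at 16.0 to 28.6 FPKM in hippocampus and 9.19 to 11.9 FPKM in hypothalamus, a difference of 1.36 ± 0.20 (SE, n = 4 and 3). Ctnnb1, which encodes beta-catenin, read 119.9 to 137 FPKM in hippocampus and 103 to 127 FPKM in hypothalamus and was not called, with a difference of 0.52. Of 11 Fat and Celsr pathway genes, Prickle1 and Fzd3 were called higher in hippocampus. Prickle1, a planar polarity gene, read 28.5 to 31.5 FPKM in hippocampus and 6.17 to 13.2 FPKM in hypothalamus, a difference of 2.09 that became 1.17 with its loci summed. Fzd3, a Wnt receptor that acts with Celsr3 in axon tracts, read 6.58 to 8.33 FPKM in hippocampus and 2.24 to 4.67 FPKM in hypothalamus, a difference of 1.49. Of 10 cadherin-cleaving protease genes compared, Psenen, a gamma-secretase subunit, was called higher in hypothalamus, at 40.3 to 48.5 FPKM in hippocampus and 234 to 257 FPKM in hypothalamus. Mmp9, a secreted protease, was called higher in hippocampus, at 0.751 to 1.87 FPKM in hippocampus and 0.0747 to 0.154 FPKM in hypothalamus. It reached the minimum in hippocampus alone, and with a pseudocount of 5 its difference of 1.92 became 0.74 and was not called. In FPKM as deposited the difference was 1.06, with upper-quartile scaling 1.11 and with median-of-ratios scaling 1.13, each just past the limit. Adam10, the main sheddase of N-cadherin, overlapped, at 17.5 to 32.7 FPKM in hippocampus and 14.6 to 22.2 FPKM in hypothalamus.

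**Figure D5:**
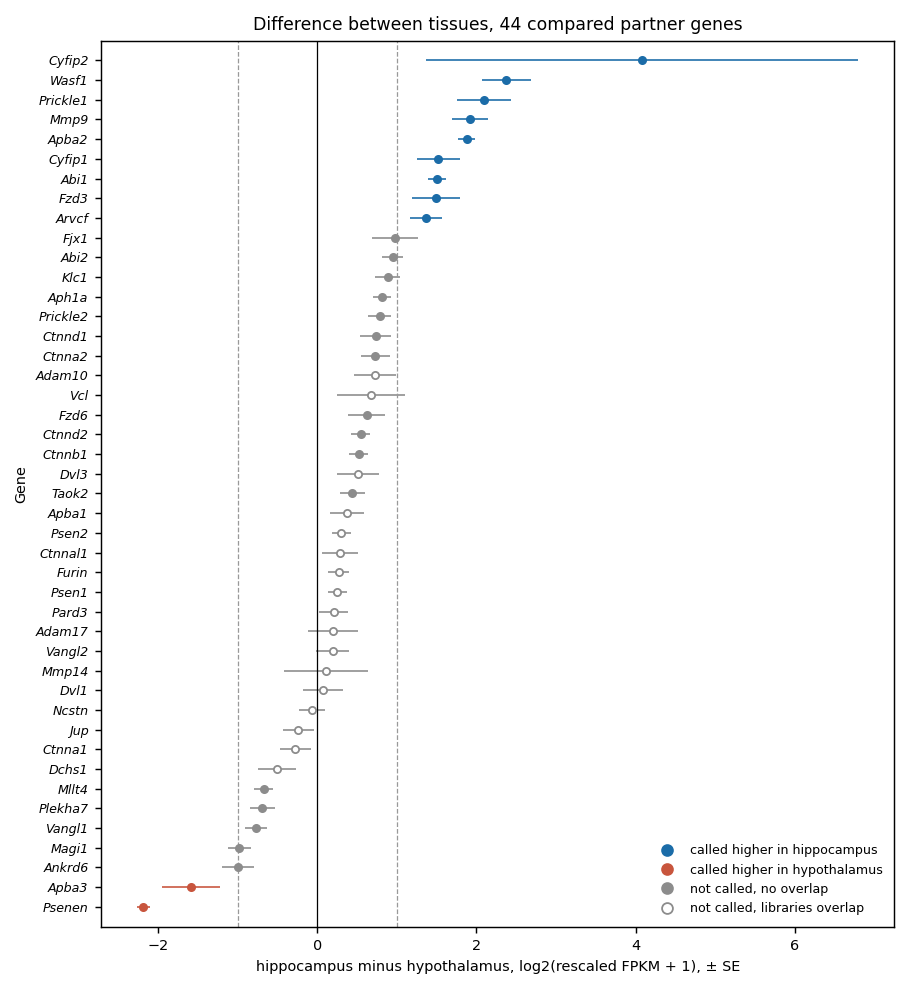
Difference between tissues for 44 compared partner genes, as hippocampus minus hypothalamus on the log2(rescaled FPKM + 1) scale, with bars of 1 standard error from 4 and 3 libraries and dashed lines at 2-fold. The 9 blue genes were called higher in hippocampus and the 2 red genes, Apba3 and Psenen, in hypothalamus, and the wide bar of Cyfip2 includes 1 hypothalamus library listed at 0.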

How the data were processed

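Poly-A RNA of 7 libraries was sequenced on a HiSeq 2000, per the labels' protocols. The authors deposited FPKM values, in 1 table for each tissue. The submitters' processing notes name TopHat, TopHat2, Bowtie, Bowtie2, Cufflinks, Cuffdiff and the build rn5, without roles. The annotation, library normalization and use of strand are not given in the sources used here, so reads of overlapping antisense genes cannot be told apart. Loci whose status was not OK were left out (86 of 18087 in hippocampus, 24 of 17762 in hypothalamus). For symbols with several loci, 5 of the 39 members, the locus with the highest mean was used. Tables were joined by symbol. Rescaling, the minimum of 1 FPKM, the pseudocount of 1 and the call rule are those given in the results. They were computed with Python 3.11.15 and pandas 2.3.3. The call rule was also run on simulated data without zeros, split loci or a shift of scale between tables, so that run does not cover these. Values in every library were given for called members and the 10 of highest mean. Further members, partner genes and markers were named after their values were seen. Members, lists and call rule were chosen with earlier results of these data known. The other marker lists (oligodendrocyte, oligodendrocyte precursor, astrocyte, microglia, ependyma and pituitary), whose part in the members' levels was not tested, gave 0, 0, 1, 0, 1 and 0 genes called higher in hippocampus and 1, 0, 2, 1, 3 and 3 in hypothalamus.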

Additional observations from a re-analysis of the deposited data

Results flagged for a closer look

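Among 56 values measured in the 4 hippocampus libraries (33 members, called partner genes and marker lists), 2 had an extreme library, where the distance to its closest neighbour, as a part of the range, exceeded Dixon's 95% critical value for 4 samples. Chance alone gives about 1 in 20, or 2.8 of 56. Hippocampus replicate 3 was high for Cdh5 (ratio 0.935), at 8.18 FPKM against 2.98 to 3.32 FPKM. The meninges, choroid plexus and endothelial lists had their highest mean log2 level in the same library. By summed FPKM, the endothelial list was highest in hippocampus replicate 1. The part of these tissues in the Cdh5 value was not tested. Hippocampus replicate 1 was high for Celsr3 (ratio 0.919), at 9.09 FPKM against 4.69 to 5.04 FPKM.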

How the results depend on the processing

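Under 19 alternatives, 1 of them chosen after seeing the data (without hippocampus replicate 3 and hypothalamus replicate 2 together), no called member or partner gene changed direction. Members called higher in hippocampus, 5 in all libraries, numbered 3 in FPKM as deposited, 7 with a limit of 1.5-fold and 5 to 6 when 1 library was left out. They numbered 4 with upper-quartile scaling, median-of-ratios scaling, a pseudocount of 5 or a minimum of 5 FPKM. Members called higher in hypothalamus, 4 in all libraries, numbered 2 with a pseudocount of 5, 2 with a minimum of 5 FPKM, 2 among single-locus symbols, 8 with a limit of 1.5-fold, and 4 to 5 when 1 library was left out. Partner genes called higher in hippocampus, 9 in all libraries, numbered 5 among single-locus symbols, 17 with a limit of 1.5-fold and 9 to 11 when 1 library was left out. Partner genes called higher in hypothalamus, 2 in all libraries, numbered 4 in FPKM as deposited, 4 with upper-quartile scaling, 4 with loci summed, 7 with a limit of 1.5-fold, and 2 to 4 when 1 library was left out, with 4 without hippocampus replicate 4, 4 without hypothalamus replicate 2 and 4 without hypothalamus replicate 3. Fewer members were compared at the higher minimum (23) and among single-locus symbols (28), and for the other settings the cause was not tested. Of calls over all symbols, 52.0% were on the hippocampal side, 33.8% in FPKM as deposited; for members these were 55.6% and 42.9%, and for partner genes 81.8% and 69.2%. The direction of Cdh2, Cdh11, Celsr2, Celsr3, Pcdh8 and Pcdh17 changed between scalings. No paired analysis was possible because the results come from no test, and the labels do not say whether a rat gave both tissues.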
